A study of Homo sapiens with 12 samples.

Results

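The genes described here encode the protein components of the cytosolic ribosome, read on whole-transcript arrays in MDA-MB-231 cells, an established triple-negative breast cancer line from a pleural effusion. A gene was a member when its symbol had the form RPL or RPS with a number, or was RPLP0, RPLP1, RPLP2 or RPSA, and when a row of the expression table (1 row is 1 probe set) carried that symbol alone. Each gene was read from its row with the highest mean over the arrays. The rule found 61 rows for 53 genes, and all 53 passed the filter on dim rows that left 20572 genes in the series. Of the 53, 46 were core ribosomal proteins (26 of the large subunit, 19 of the small subunit and RPLP1 of the P stalk) and 7 were paralogues: RPL3L, RPL7L1, RPL10L, RPL22L1, RPL26L1, RPL39L and RPS27L. Of 77 core genes listed, 31 had no row with a single symbol, and 21 of those stood only in rows shared with other symbols. The 2 other P stalk genes, RPLP0 and RPLP2, are among the 31 and were not analysed as members.

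Each of 4 groups had 3 arrays. The control was left untreated, and the other groups received 40 ng/ml TNFα, 40 µM apigenin, or the 2 agents at these doses together, with exposure for 24 h. TNFα is an inflammatory cytokine and apigenin a plant flavone. Both agents were prepared in a buffered salt solution (HBSS), and what the controls received in its place was not stated. All groups were the same cell line, so no genotype differed between them. The labels number the arrays 1 to 3 within a group and do not call them separate cultures. A p-value here therefore rests on array-to-array spread alone, and that spread may be technical.

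Ribosomes are built from ribosomal RNA and a set of ribosomal proteins, most of them present once per particle, so the genes of the set are usually expressed in a coordinated way. The P stalk is the flexible arm of the large subunit that recruits translation factors. Most ribosomal protein mRNAs begin with a C followed by an unbroken run of pyrimidines, the terminal oligopyrimidine or TOP motif, through which mTOR signalling and the binding protein LARP1 control their translation and stability. Many of the genes carry small nucleolar RNAs (snoRNAs), guides of ribosomal RNA modification, in their introns. In tumour cells these genes are known for high expression and for their link to growth signalling.

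The start sites are shown first because the TOP motif is a sequence feature that most core members share and that the rule did not use. Each line holds the 10 bases before and the first 20 bases from the annotated RefSeq start (GRCh38.p14), on the strand of the gene and in the order of transcription. Capitals mark the pyrimidine run where it starts with C at the first base and is followed by at least 4 bases that are each C or T. The first 7 genes carry the motif and were called higher in at least 1 of the comparisons that add apigenin, and RPS29 was called without it. RPS27 and RPL22 are core genes set beside their paralogues.
RPLP1: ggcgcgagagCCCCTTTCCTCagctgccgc
RPL12: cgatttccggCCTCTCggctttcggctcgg
RPL29: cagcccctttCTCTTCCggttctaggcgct
RPS24: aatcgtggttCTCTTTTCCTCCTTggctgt
RPS16: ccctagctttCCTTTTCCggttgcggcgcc
RPS23: cggtgcttctCTCTTTCgctcaggcccgtg
RPS6: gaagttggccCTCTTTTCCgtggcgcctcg
RPS29: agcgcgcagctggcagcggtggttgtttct
RPS27: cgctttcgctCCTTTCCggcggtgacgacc
RPS27L: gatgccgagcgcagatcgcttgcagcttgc
RPL22: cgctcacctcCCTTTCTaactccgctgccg
RPL22L1: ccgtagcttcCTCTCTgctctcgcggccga
The windows of RPLP1 (chr15:69452808-69452837), RPS24 (chr10:78033853-78033882) and RPS27 (chr1:153990752-153990781) lie on the plus strand. Those on the minus strand are RPL12 (chr9:127451387-127451416), RPL29 (chr3:51995876-51995905), RPS16 (chr19:39435930-39435959), RPS23 (chr5:82278335-82278364), RPS6 (chr9:19380217-19380246) and RPS29 (chr14:49598691-49598720). RPS27L (chr15:63157458-63157487), RPL22 (chr1:6199576-6199605) and RPL22L1 (chr3:170870176-170870205) are also on the minus strand.

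The promoter table held 46 of the 53 members, 41 core genes and 5 paralogues, with 54 start windows in all. A gene counted as carrying the motif when any of its windows did. Of the 41 core genes, 30 (73.2%) began with the TOP motif, against 1404 of 27305 genes (5.14%) of the whole table. Of the 5 paralogues only RPL22L1 did. The motif CCGGAAG, searched on both strands in the 300-base window from 250 bases before to 50 after the start, was in 13 of the 41 core genes (31.7%) and in 12.2% of all genes. TATAAA, searched the same way, was in 2 of the 41, RPS3 and RPS28 (named after their windows were read), and in 13.99% of all genes. A match describes the letters of the window and not a bound site. The TOP motif was read only from the annotated start, so its absence describes the annotation and not the mRNA.

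The array readings of the members spread over most of the scale, which ran from 0.536 to 12.495 in log2 units. Since probe sets differ in how well they hybridise, a reading is not compared between genes as an amount of mRNA. With a mean of 4 over the 12 arrays as the dividing value, 10 members read low and 43 read high, of which 34 lay between 4 and 8 and 9 at 8 or above. The 4 lowest were RPL10L (1.92), a retroposed copy of RPL10 known from testis, RPL7 (2.27), RPL22 (2.39) and RPS27L (2.49). The 4 highest were RPS27 (10.91), RPS28 (10.71), RPS15 (10.24) and RPS19 (9.57), all of the small subunit. The RPS27 and RPS28 rows lie among rows of other chromosomes, as described further on, and whether they read transcripts of the named genes was not tested. RPL28 (3.97) and RPLP1 (3.99) stood just below the dividing value, RPL32 (4.07) and RPL12 (4.38) just above it. With dividing values of 3, 5 and 6, there were 5, 22 and 34 members below.

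Apigenin alone was accompanied by higher readings of the ribosomal protein genes as a set. The median of the 53 members was 4.98 to 5.13 on the control arrays and 5.43 to 5.53 on the apigenin arrays, so these groups did not overlap. In the limma fit, 9 of the 53 members were called higher at an adjusted p below 0.05 and none lower, while 11.4% of all 20572 genes were called, 4.55% higher and 6.83% lower. The 9 were RPLP1, RPL37, RPL12, RPS15A, RPL32, RPS24, RPL29, RPS29 and RPS16. The fold change was above 0 in 51 of 53 members and in 46 of the 46 core genes, against 46.7% of all genes, and the median log2 fold change was 0.26, against -0.02 over all genes. In 28 members the 3 apigenin arrays lay above the 3 control arrays, which held for 11.1% of all genes, and in none did they lie below. With the replicate number as a block in the fit, 15 members were called higher, where 6.98% of all genes were. The 6 added were RPS23 (adjusted p = 0.0134 with the block), RPS19 (0.0282), RPL34 (0.0306), RPL41 (0.0371), RPL14 (0.0423) and RPS18 (0.0496).

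The increase was largest in RPLP1, the acidic stalk protein that pairs with RPLP2. RPLP1 read 3.14, 3.14 and 3.30 on the control arrays and 4.59, 4.53 and 5.05 on the apigenin arrays. Every apigenin array was more than 1 log2 unit above every control array. The log2 fold change was 1.53 (SE 0.17, 2.89-fold, adjusted p = 0.000103, n = 3 per group), at rank 39 among the 20572 genes.

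In the large subunit, 4 of 26 genes were called with apigenin. RPL37, a zinc-binding protein of that subunit, read 4.35, 3.93 and 4.99 in control and 5.37, 5.19 and 5.82 with apigenin, a log2 fold change of 1.04 (SE 0.23, 2.05-fold, adjusted p = 0.00964). Its lowest apigenin array was only slightly above its highest control array, the array numbered 3. RPL12, which forms the base of the P stalk, read 3.75, 3.72 and 4.26 against 5.01, 4.64 and 5.14 (log2 fold change 1.02, SE 0.20, adjusted p = 0.00428), with no overlap. RPL32 read 3.29, 3.09 and 4.24 against 4.36, 4.23 and 4.70, and its groups overlapped by a narrow margin (0.89, SE 0.25, adjusted p = 0.0338). RPL29, a heparin-binding protein, read 5.69, 5.42 and 5.77 against 6.44, 6.07 and 6.51 (0.71, SE 0.14, adjusted p = 0.00426), again without overlap. The other 22 large-subunit genes had positive fold changes that were not called, and the median over all 26 was 0.28.

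In the small subunit, 4 of 19 genes were called with apigenin and the median log2 fold change over the 19 was 0.18. RPS15A read 6.21, 5.69 and 5.50 in control and 6.87, 6.74 and 6.57 with apigenin (0.93, SE 0.19, adjusted p = 0.00523). RPS24, one of the genes mutated in Diamond-Blackfan anaemia, read 4.53, 4.61 and 4.86 against 5.22, 5.46 and 5.51 (0.73, SE 0.15, adjusted p = 0.00666). In both genes all apigenin arrays lay above all control arrays. RPS29, a zinc-binding protein also mutated in that disease, read 5.30, 5.53 and 5.34 against 6.06, 6.06 and 6.08 (0.68, SE 0.14, adjusted p = 0.00675). RPS16, whose tail contacts the tRNA, showed the smallest called difference, 5.24, 5.15 and 5.53 against 5.96, 5.62 and 5.75 (0.47, SE 0.14, adjusted p = 0.0452). RPS6, the substrate of the S6 kinases, differed by 0.15 (SE 0.11, adjusted p = 0.477) and RPS23, a protein of the decoding centre, by 0.50 (SE 0.18, adjusted p = 0.0941, or 0.0134 with the replicate block). Of the 9 calls, 7 held whichever of the 6 control and apigenin arrays was left out, while RPL32 and RPS16 each lost theirs in 4 of the 6 fits.

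**Figure D1:**
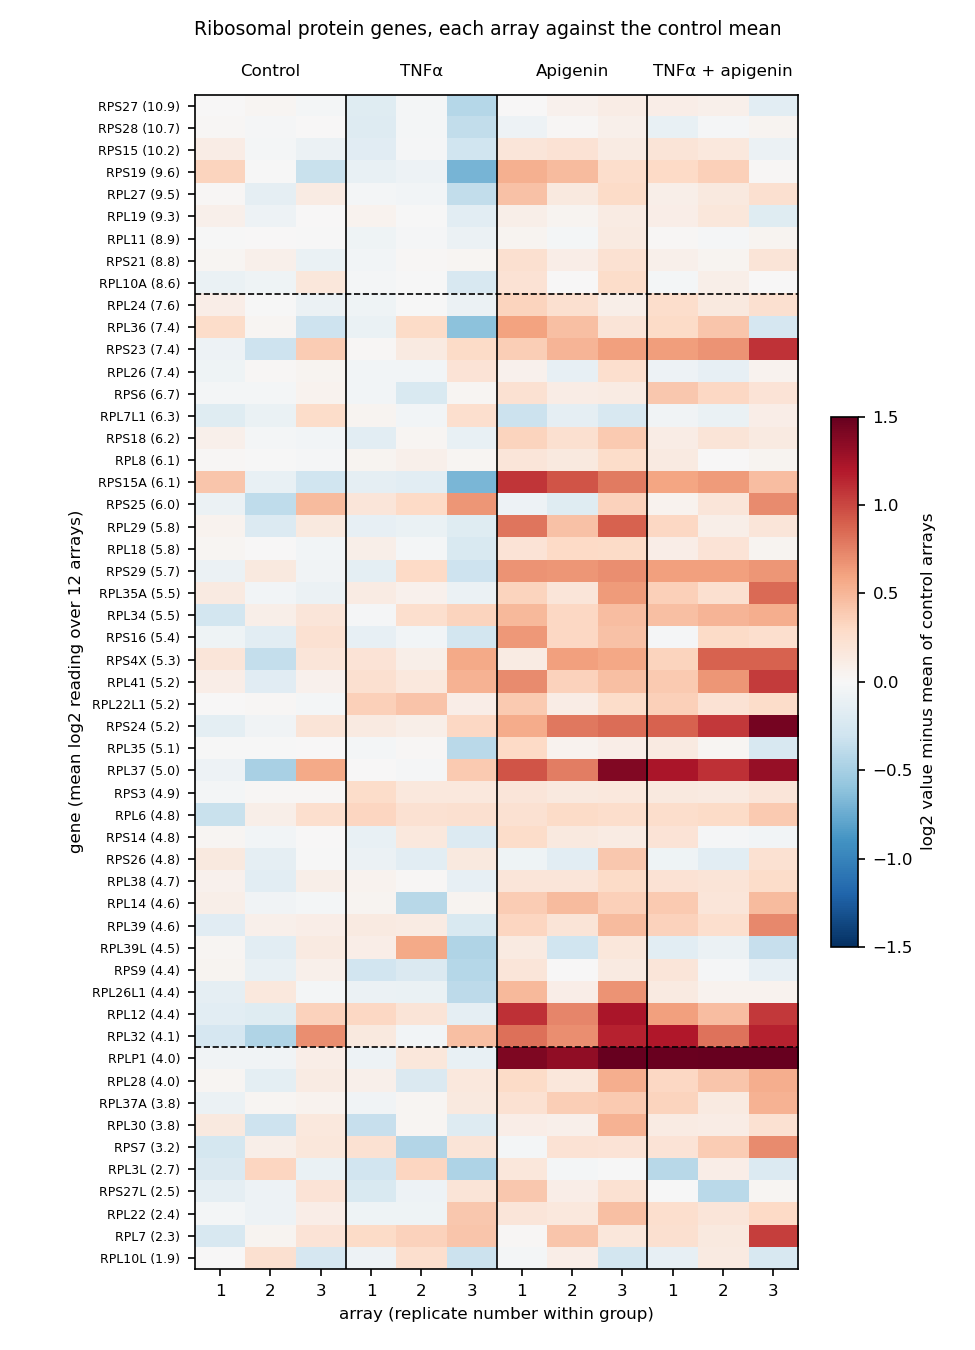
Log2 value of each of the 53 members on each of the 12 arrays minus the mean of the 3 control arrays (red above, blue below; the colour scale ends at 1.5, which RPLP1 passes), with genes in order of their mean reading and dashed lines at means of 8 and 4. The 6 columns with apigenin are red for most genes between the dashed lines, and RPLP1, just under the lower line, is the darkest row.

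The set was also higher when apigenin was added to TNFα, a comparison that shares no array with apigenin against control. The median of the members was 5.08 to 5.16 on the TNFα arrays and 5.33 to 5.74 on the arrays with both. Of the 53 members 8 were called higher and none lower, where 10.1% of all genes were called, 4.21% higher and 5.92% lower. The fold change was above 0 in 44 members, 43 of them core genes, against 47.8% of all genes, with a median of 0.27. In 25 members the groups did not overlap and the combined treatment was higher, as in 11.6% of all genes. The 3 core genes below 0, named after their values were seen, were RPL26 (-0.10), RPS25 (-0.06) and RPS3 (-0.05).

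RPLP1 again led, with readings of 3.11, 3.37 and 3.08 with TNFα and 4.68, 4.68 and 5.23 with both (log2 fold change 1.68, SE 0.17, 3.20-fold, adjusted p = 7.89e-05), at rank 18 of all genes. RPL37 read 4.43, 4.40 and 4.81 against 5.64, 5.52 and 5.73 (1.09, SE 0.23, 2.12-fold, adjusted p = 0.00858). RPS24 read 4.81, 4.76 and 4.98 against 5.56, 5.72 and 6.10 (0.95, SE 0.15, adjusted p = 0.00159). In these 3 genes the groups were well apart. RPS15A read 5.66, 5.64 and 5.11 against 6.39, 6.43 and 6.26 (0.89, SE 0.19, adjusted p = 0.00812). RPS29 read 5.24, 5.69 and 5.08 against 6.004, 6.002 and 6.06 (0.68, SE 0.14, adjusted p = 0.00765), and RPL32 read 3.69, 3.50 and 3.99 against 4.74, 4.36 and 4.69 (0.87, SE 0.25, adjusted p = 0.0413). These 6 were called in both comparisons. In the comparison with TNFα present none of the 6 had overlapping groups, while RPL32 overlapped narrowly in apigenin against control. The closest arrays with TNFα present were TNFα replicate 2 and replicate 1 or 2 of the combined treatment in RPS29.

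RPS23 and RPS6 were called with TNFα present but not without it, and RPL12, RPL29 and RPS16 the other way round. With the replicate block RPS23 was called without TNFα too, and RPL12 with TNFα present too (adjusted p = 0.0379 with the block). RPS23 read 7.08, 7.19 and 7.35 with TNFα and 7.69, 7.74 and 8.15 with both (0.65, SE 0.18, adjusted p = 0.0305). RPS6 read 6.53, 6.34 and 6.60 against 6.98, 6.88 and 6.77, a small difference without overlap (0.39, SE 0.11, adjusted p = 0.0431). RPL12 read 4.22, 4.11 and 3.78 against 4.53, 4.37 and 4.97 (0.59, SE 0.20, adjusted p = 0.0815). RPL29 differed by 0.33 (SE 0.14, adjusted p = 0.175) and RPS16 by 0.32 (SE 0.14, adjusted p = 0.197). None of these genes was called for a difference between the 2 responses: the interaction was -0.43 (SE 0.28) for RPL12, -0.38 (SE 0.20) for RPL29, -0.15 (SE 0.20) for RPS16, 0.16 (SE 0.25) for RPS23 and 0.23 (SE 0.16) for RPS6, each with an adjusted p of 0.999. The call count was 5 without TNFα replicate 1, TNFα replicate 2, replicate 2 of the combined treatment or replicate 3 of it, and RPLP1, RPL37, RPS24, RPS15A and RPS29 kept theirs whichever array of the 2 groups was left out. RPS6 lost its call in all 6 of these fits, RPL32 in 5 and RPS23 in 4.

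**Figure D2:**
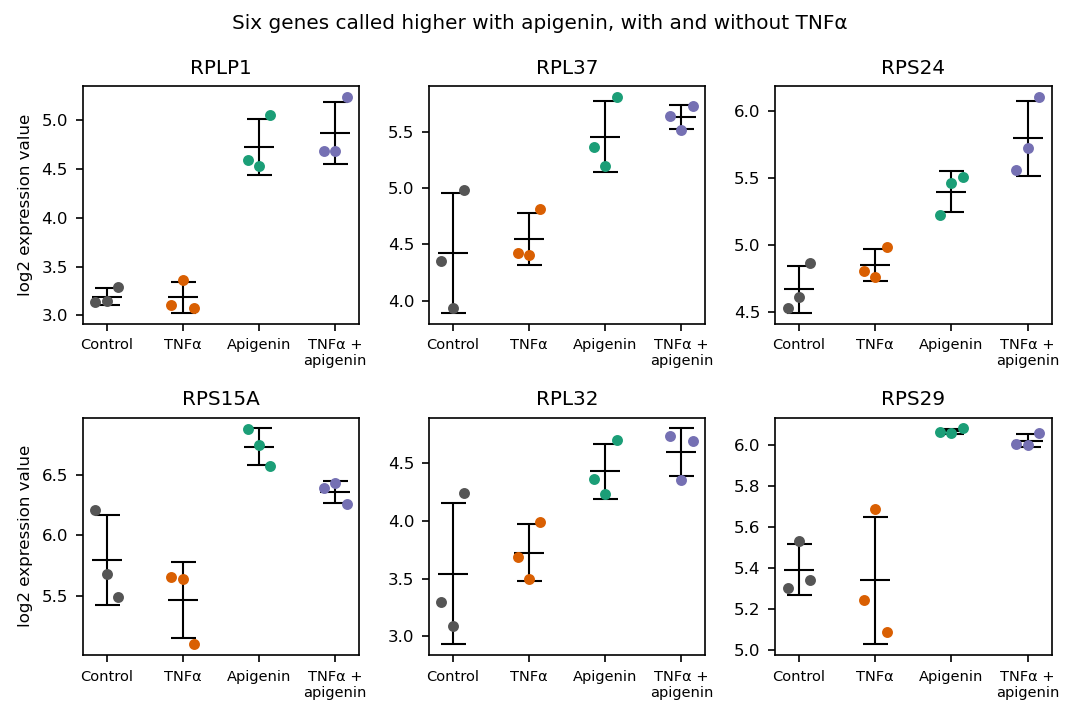
Log2 readings of the 6 members called in both apigenin comparisons, 1 point per array, with the mean and SD of the 3 arrays of a group as bars. RPLP1 stays between 3.08 and 3.37 on the 6 arrays without apigenin and between 4.53 and 5.23 on the 6 with it.

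Across these comparisons 11 members (20.8%) were called higher in at least 1 and 6 (11.3%) in both, against 6.02% and 2.75% of all genes. Of the 53, 44 had a positive fold change in both, as did 31.5% of all genes. In 18 members the apigenin arrays lay above their reference arrays both times, against 5.83% of all genes. Between control and the combined treatment 10 members were called higher and none lower, where 12.5% of all genes were called, 7.15% higher and 5.37% lower. It shares the control arrays with the apigenin comparison, so the values stand side by side and do not add to it. The largest differences were in RPLP1 (1.67, SE 0.17, adjusted p = 4.97e-05), RPL37 (1.21, SE 0.23, adjusted p = 0.00338), RPS24 (1.13, SE 0.15, adjusted p = 0.000306), RPL32 (1.05, SE 0.25, adjusted p = 0.0127), RPS23 (0.80, SE 0.18, adjusted p = 0.00832) and RPL12 (0.71, SE 0.20, adjusted p = 0.0306). The other 4 calls, named here after their values were seen, were RPS4X (0.70), the X-linked copy of RPS4, RPL41 (0.70), the smallest protein of the ribosome, RPS29 (0.63) and RPL34 (0.50). RPL41 read 4.92, 4.65 and 4.88 in control and 5.21, 5.47 and 5.86 with both, without overlap. The count was 6 without control replicate 2, without replicate 3 of the combined treatment, or without the 4 arrays numbered 3. In the 6 fits without 1 of the compared arrays, RPL12, RPL34 and RPS4X each lost their call in 4, RPL32 in 3 and RPL41 in 2. RPLP1, RPL37, RPS24, RPS23 and RPS29 kept theirs in all 6.

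TNFα alone called no member, where 0.997% of all genes were called in the limma fit, 0.778% higher and 0.219% lower. An unadjusted p below 0.05 was found for 2 members and for 11.6% of all genes. The median log2 fold change was -0.04 and 23 of 53 were above 0, against 54.9% of all genes. RPLP1 (log2 means 3.19 in control and 3.19 with TNFα) and RPL37 (4.42 and 4.55) lay within the spread of the arrays. TNFα arrays lay above control in 5 members and below in 4 without overlap, against 8.42% and 5.22% of all genes. The rows reading 8 or above were lower in 8 of 9 cases, with a median of -0.15, and none was called. In 7 of these 9 rows the lowest of the 12 arrays was TNFα replicate 3.

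Adding TNFα to apigenin called no member either, where 0.209% of all genes were called in the limma fit, all of them higher. An unadjusted p below 0.05 was found for 4 members and for 7.24% of all genes. The median was -0.05 and 20 of 53 were above 0, against 58.2% of all genes. The groups did not overlap in 10 members, 3 higher and 7 lower, against 10.4% and 3.77% of all genes. RPL29 had the largest such decrease in value, 6.44, 6.07 and 6.51 with apigenin and 5.94, 5.72 and 5.81 with both (-0.52, SE 0.14, adjusted p = 0.301). For the interaction, no member was called and none had an unadjusted p below 0.05, where 0.0535% of all genes were called in the limma fit (0.00972% higher and 0.0437% lower) and 4.23% had such a p. The median interaction of the members was -0.03, with 23 of 53 above 0, against 51.6% of all genes.

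The calls with apigenin were spread unevenly over the readings, among all genes as well as among the members, and no difference between readings was tested. Among the 34 members between 4 and 8, 8 were called and the median fold change was 0.33, while 10.5% of all genes in that range were called higher. Of the 10 members below 4, only RPLP1 was called, with a median of 0.24 over the 10, where 203 of the 13533 genes below 4 were called higher. RPL7 read 1.78, 2.05 and 2.22 in control and 2.03, 2.43 and 2.19 with apigenin, so its groups overlapped (0.20, SE 0.21, adjusted p = 0.65). RPL22, an RNA-binding protein of the large subunit, read 2.21, 2.17 and 2.34 against 2.42, 2.40 and 2.69, a small difference without overlap (0.26, SE 0.14, adjusted p = 0.301). Without the replicate block none of the 9 members at 8 or above was called, although 9 of 9 were above 0 (median 0.16) and 9.47% of all genes in that range were called higher. RPS27 read 10.95, 10.97 and 10.92 in control and 10.96, 11.02 and 11.06 with apigenin (0.06, SE 0.12, adjusted p = 0.847). These arrays overlapped, as did those of RPS28, which differed by 0.00 (SE 0.11, adjusted p = 0.993). RPS15, a protein near the decoding centre, read 10.33, 10.19 and 10.13 against 10.39, 10.44 and 10.34, narrowly apart (0.18, SE 0.12, adjusted p = 0.453). RPS19, the gene most often mutated in Diamond-Blackfan anaemia, read 9.82, 9.48 and 9.15 against 10.02, 9.95 and 9.75, and its groups overlapped (0.42, SE 0.19, adjusted p = 0.211). Each apigenin array of RPS19 was above the control array of its own number, and with the replicate block the gene was called (adjusted p = 0.0282), the 1 call among the 9 brightest rows. The array median of the 9 brightest rows ran from 9.30 to 9.45 on control arrays and from 9.07 to 9.40 under TNFα. On arrays with apigenin alone it was 9.59 to 9.87, and under the combination 9.50 to 9.58. With TNFα present, 7 of the 34 members between 4 and 8 were called (median 0.31), where 9.45% of all genes in that range were called higher. Below 4, 1 of the 10 was called (median 0.22), where 202 of the 13533 genes below 4 were called higher. The 9 brightest rows had a median of 0.17 and no call without the block, where 9.47% of all genes at 8 or above were called higher. TNFα replicate 3, the lowest array in 7 of these rows, is part of that reference group. These were bulk samples of 1 cell line, so a change in the share of cells expressing a gene and a change in RNA per cell cannot be told apart.

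**Figure D3:**
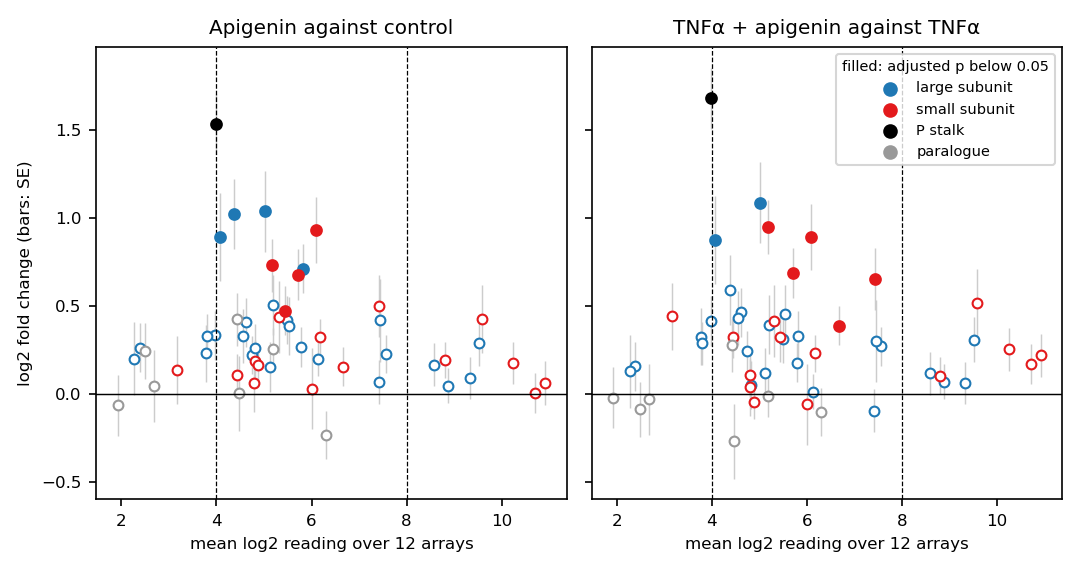
Log2 fold change of each member against its mean reading over 12 arrays, for apigenin against control (left) and for both against TNFα (right), with bars of 1 SE, colours for the role and filled points for members called at an adjusted p below 0.05. All filled points lie between readings of 3.99 and 7.42, and the 9 points at 8 or above are open, from 0.00 to 0.42 on the left and from 0.06 to 0.52 on the right.

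For 3 genes, several rows carried the same symbol. Their rows are set side by side here after their values were seen, as a description. RPS27, a zinc-finger protein of the small subunit, is read above from a row whose 10 neighbours by row number all belong to genes of chromosome 12, while the gene is on chromosome 1. Its second row, with 10 of 10 neighbours on chromosome 1, read 4.75, 4.76 and 5.43 in control and 6.12, 6.16 and 6.22 with apigenin. That row rose by 1.19 on the log2 scale (SE 0.19, adjusted p = 0.00369 over 44931 rows), and by 0.98 from TNFα to both (adjusted p = 0.0122, or 0.0545 without TNFα replicate 1). The difference with apigenin was thus larger by 1.13 in the dimmer row than in the brighter one, and by 0.77 with both against TNFα.

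RPS28 was likewise represented by a pair of rows. Its brighter row, with 10 of 10 neighbours on chromosome 11, differed by 0.00 with apigenin, while the row among chromosome 19 genes, where RPS28 lies, read 3.30, 2.43 and 3.34 in control and 3.79, 3.81 and 3.81 with apigenin (0.78, SE 0.26, adjusted p = 0.13, or 0.0321 with the replicate number as a block). With both against TNFα that row differed by 0.40 (adjusted p = 0.553). The dimmer row's difference was larger than the brighter row's by 0.78 with apigenin and by 0.23 with both against TNFα, the latter with overlapping arrays. RPS18 had 7 rows, 4 of them with identical values, all among chromosome 6 genes. Its brightest row differed by 0.32 with apigenin (adjusted p = 0.0886) and its dimmest by 0.97 (from 1.71 to 2.69, adjusted p = 0.0211, lost without control replicate 1 at 0.0842, apigenin replicate 2 at 0.0761 or apigenin replicate 3 at 0.0692), but the dimmest differed by only 0.13 with both against TNFα. Its difference was larger than the brightest row's by 0.65 with apigenin, whereas with both against TNFα the comparison ran the other way (-0.10) and the arrays overlapped. No other member's row lay among genes of another chromosome. With RPS27 and RPS28 read from the rows on their own chromosomes, a choice made after seeing the data, 10 members were called with apigenin and 9 with both against TNFα.

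**Figure D4:**
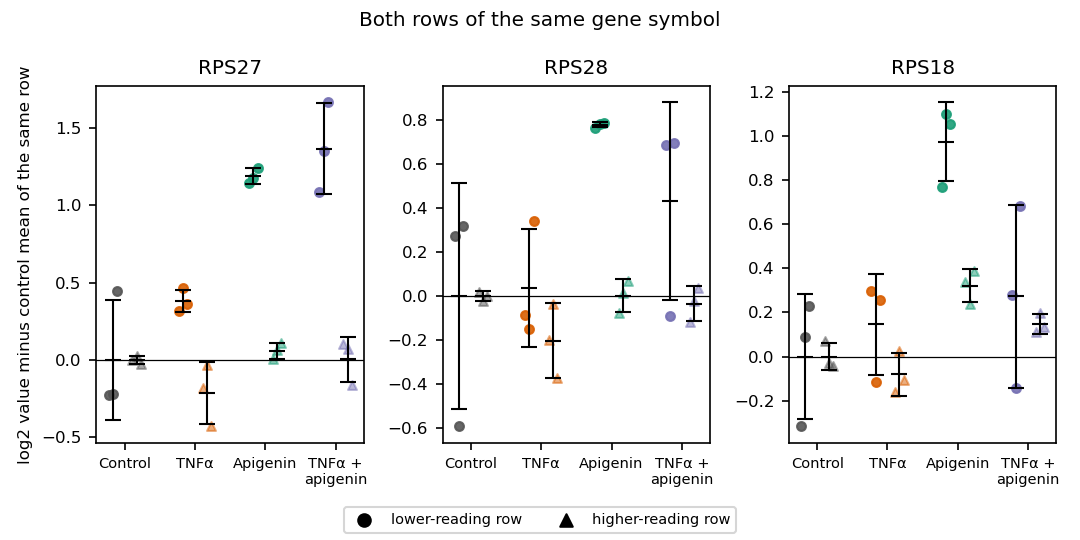
Log2 value minus the control mean of the same row for the dimmest (circles) and brightest (triangles) row of RPS27, RPS28 and RPS18 on each array, with the mean and SD of 3 arrays as bars. The dimmer RPS27 row, which read 6.06 to 6.64 on the 6 arrays with apigenin and 4.75 to 5.43 in control, lies above its control level there, whereas the brighter row differed by 0.06 with apigenin.

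The rows that carried several symbols, at least 1 of them a ribosomal protein, numbered 38, and no gene is named from them. With apigenin 5 of these rows were called higher and none lower, where 2.82% of 44931 rows were, and 32 of 38 were above 0 (median 0.31). By reading, 1 of 6 below 4, 4 of 19 from 4 to 8 and 0 of 13 at 8 or above were called, the last with a median of 0.06. With both against TNFα, 7 were called higher and none lower, where 2.46% of rows were, and again 0 of the 13 brightest.

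Paralogues are near copies of ribosomal protein genes, and some replace the core protein in particular tissues. None of the 7 was called in any comparison, and the median log2 fold change was 0.04 with apigenin and -0.03 with both against TNFα. RPL26L1 had the largest value with apigenin (0.42, SE 0.15, adjusted p = 0.101), followed by RPL22L1 (0.26) and RPS27L (0.24). RPL22L1, the only paralogue with the TOP motif, read 4.98, 5.00 and 4.95 in control, 5.33, 5.40 and 5.08 with TNFα, 5.36, 5.08 and 5.24 with apigenin and 5.33, 5.18 and 5.24 with both. All 9 treated arrays were above the control arrays, and no difference was called. RPL3L (0.04), a muscle form, RPL39L (0.00) and RPL10L (-0.07) showed values near zero, and RPL7L1, a factor of ribosome assembly, was lower in value (-0.24, SE 0.14, adjusted p = 0.351). Core genes and paralogues were not tested against each other.

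The TOP motif was present in 7 of 9 core genes with a promoter entry that were called in either apigenin comparison, and in 23 of 32 (71.9%) that were not. RPL32 and RPS29 were the 2 called genes without it at an annotated start, as the RPS29 window above shows.

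Other mRNAs are known to carry the motif, among them those of translation factors. Of 21 listed, 14 were measured, and with apigenin 3 rose and none fell, where 4.55% of all genes were called higher and 6.83% lower. Of the 14, 12 were above 0, against 46.7% of all genes, with a median of 0.35. PABPC1, the poly(A)-binding protein, read 4.59, 4.77 and 4.72 in control and 5.58, 5.59 and 6.20 with apigenin (1.10, SE 0.18, adjusted p = 0.00143). HNRNPA1, an RNA-binding splicing regulator, rose by 1.31 (SE 0.32, adjusted p = 0.0174) and the elongation factor EEF2 by 0.37 (SE 0.10, adjusted p = 0.0338). HNRNPA1 read 4.70, 4.48 and 5.98 in control, with a mean of 5.05. Its mean was already 6.32 with TNFα alone, against 6.37 with apigenin and 6.51 with both. EEF2 lost its call whichever of the 6 arrays was left out, and HNRNPA1 in 4 of 6 such fits. The count of 3 was 1 without control replicate 2, apigenin replicate 2 or apigenin replicate 3. With both against TNFα, PABPC1 (0.62, adjusted p = 0.0464) and the initiation factor EIF3A (0.41, adjusted p = 0.0372) were higher, where 4.21% of all genes were. Both calls were lost without TNFα replicate 1 or 2, apigenin replicate 1, or replicate 1 or 2 of the combined treatment. With both against control 4 were higher, HNRNPA1 (1.46), EIF3A (0.65), EIF3L (0.51) and EEF2 (0.38), where 7.15% of all genes were. EEF2 lost this call in 5 of 6 fits without 1 of the compared arrays and EIF3L in 3 of 6, and the count was 2 without control replicate 2, replicate 3 of the combined treatment or the arrays numbered 3. TNFα alone called none of the 14.

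Of 19 regulators of translation, all measured, 3 rose and 3 fell with apigenin, where 4.55% of all genes were called higher and 6.83% lower, and the median was 0.14. SESN2, a stress-induced inhibitor of mTOR complex activity, rose from 3.61, 3.38 and 3.96 to 5.02, 4.99 and 5.01 (1.36, SE 0.16, adjusted p = 0.000138). MYC, a transcription factor of growth genes, rose by 0.70 and the initiation factor EIF2S1 by 0.67. The MYC mean was 6.16 in control and already 6.77 with TNFα alone, a difference not called. It was 6.86 with apigenin and 7.08 with both. EIF2AK4, the kinase that senses uncharged tRNA, fell from 6.26, 6.06 and 6.59 to 5.23, 5.13 and 5.47 (-1.03, SE 0.16, adjusted p = 0.00103). The mTOR complex subunit RPTOR (-0.60) and the endoplasmic reticulum stress kinase EIF2AK3 (-0.53) were also called lower, calls lost in 5 and 4 of the 6 fits without 1 of the compared arrays. SESN2, MYC, EIF2S1 and EIF2AK4 lost theirs in none of these. With both against TNFα, SESN2 (1.15) and EIF2S1 (0.74) were higher and EIF2AK4 (-1.05) was lower. TNFα alone was accompanied by a lower reading of DDIT4, an inhibitor of mTOR signalling (-0.66, SE 0.14, adjusted p = 0.0348), a call lost in 5 of 6 fits without 1 array. With both against control, SESN2 (1.31), MYC (0.93), EIF2S1 (0.88) and EIF4G1 (0.48) were higher and EIF2AK4 (-0.80) was lower. EIF4G1 lost its call in 5 of 6 fits without 1 of the compared arrays, and the others in none. The EIF4G1 mean was 6.16 in control, 6.58 with TNFα alone, 6.45 with apigenin and 6.64 with both.

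Of 55 listed snoRNAs that lie in introns of ribosomal protein genes, 16 were measured, and with apigenin 3 were called higher and none lower, where 4.55% of all genes were called higher. The value was above 0 in 16 of 16, against 46.7% of all genes, with a median of 0.50. The median over all 153 measured snoRNAs was 0.41. SNORD14A, in RPS13, rose from 6.05 to 6.86 (0.81, SE 0.15, adjusted p = 0.00267), SNORD4B, in RPL23A, by 0.86 (SE 0.25, adjusted p = 0.0399) and SNORA66, in RPL5, by 0.76 (SE 0.17, adjusted p = 0.0117). SNORD4B lost its call whichever of the 6 arrays was left out, and the count was 1 without control replicate 3 or apigenin replicate 3. With both against TNFα, SNORD14A (0.89) and SNORA66 (0.76) were called, where 4.21% of all genes were called higher. Again 16 of 16 were above 0, against 47.8% of all genes. Their median was 0.63, against 0.50 over all 153 measured snoRNAs. Without TNFα replicate 2 the count called was 11, and it was 1 without TNFα replicate 1 or replicate 3 of the combined treatment. The share of all genes called in those fits is not given. On TNFα replicate 2 the median of all 153 snoRNAs was 5.82, against 5.08 on replicate 1 and 4.67 on replicate 3. Only 4 of the 16 had a host among the members. SNORD72, in RPL37, differed by 0.30 with apigenin (SE 0.48), against 1.04 for its host, and SNORA65, in RPL12, by 0.52 (SE 0.46), against 1.02. SNORA72, in RPL30, differed by 0.99 (SE 0.40, adjusted p = 0.148), against 0.23 for its host, and SNORD15B, in RPS3, by 0.14 (SE 0.21), against 0.16. None of these 4 snoRNAs was called, and no difference from a host was tested.

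The snoRNA level moved with the array as well as with the group. The array median of the 153 snoRNAs ran from 5.33 to 5.48 on control arrays. It was 4.67 to 5.82 under TNFα, 5.73 to 6.32 under apigenin and 5.79 to 5.90 under the combination, and its part in the ribosomal protein result was not tested. All 12 arrays had medians of 2.091 to 2.159, and 19.5% to 21.6% of the rows of an array read above 4. Arrays of a group correlated at 0.983 to 0.991 across genes. The line's markers VIM, CD44, CAV1 and AXL read 6.43 to 10.19, with CAV1 lower under apigenin (-0.60, adjusted p = 0.00228). ESR1, PGR and CDH1, low in this line, read 1.37 to 2.44. EPCAM, listed with them as low, read 4.58 to 5.24, above the dividing value of 4 on every array. Of 7 markers of leukocytes, endothelium and fibroblasts, 4 were measured, with array medians of 2.04 to 2.35 and CD68 as high as 9.95. None of these 4 was called in any comparison in the limma fit.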

How the data were processed

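Total RNA of 12 samples was hybridised to Affymetrix whole-transcript arrays. The authors deposited 1 log2 value per probe set and array, which Expression Console produced according to the submitters' processing notes. Version, summary algorithm and settings were not stated. The table held 53617 rows, of which 23871 had 1 gene symbol in the platform's probe table, 1842 several and 27904 none. Rows were kept when at or above the 25th percentile of their own array on at least 3 arrays, and a gene was read from its kept row with the highest mean, which left 20572 genes. limma 3.58.1 (R 4.3.3) fitted all 12 arrays with 1 mean per group, leaving 8 residual degrees of freedom. A call needs an adjusted p (Benjamini-Hochberg, all genes of that comparison) below 0.05. Each adjusted p comes from this fit, or from the same fit over 44931 kept rows where rows are compared. The script was tested on simulated data. Start windows came from RefSeq. The number of arrays limits the precision.

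Members, lists and named genes were chosen with earlier results of these data known. Named were the members called in the apigenin comparisons, the largest calls elsewhere, the 4 lowest and 4 highest rows, the paralogues and called list genes. Same-numbered arrays of control and apigenin deviated together (r 0.102 to 0.332 over genes), so the count with the number as a block is given beside that comparison. Alternatives were quantile normalisation, other filters and row choices, a robust trended variance, fits on the compared groups alone, the block, and leaving out each array.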

Additional observations from a re-analysis of the deposited data

Results flagged for a closer look

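RPL8, a large-subunit protein, was the 1 member whose arrays moved in opposite directions under TNFα depending on apigenin. It read 6.08, 6.05 and 6.05 in control and 6.10, 6.14 and 6.09 with TNFα, so that every TNFα array was above every control array. With apigenin it read 6.24, 6.20 and 6.33, and with both 6.19, 6.07 and 6.10, so that every array with both was below. The margins were narrow: the closest arrays read 6.079 in control and 6.088 with TNFα, and 6.202 with apigenin and 6.192 with both. The interaction was -0.19 on the log2 scale (SE 0.14, limma adjusted p = 0.999), so it was not called. How many of all genes moved in opposite directions in this way was not counted.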

How the results depend on the processing

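No member was called lower in any of the 125 combinations of an alternative setting and a comparison, and the median fold change stayed above 0 in all settings run for apigenin against control, both against TNFα and both against control. Leaving out 1 array at a time gave 7 to 11 members called with apigenin, 5 to 8 with both against TNFα and 6 to 11 with both against control, and 0 to 0 in the other comparisons. The corresponding medians were 0.22 to 0.31, 0.20 to 0.29 and 0.16 to 0.23, and -0.05 to -0.01 for TNFα alone, -0.06 to -0.02 for both against apigenin and -0.05 to 0.02 for the interaction. With the replicate number as a block, the count with apigenin was 15 in place of 9, with both against TNFα 12 in place of 8 and with both against control 14 in place of 10. The share of all genes called higher rose with the block too. It was 6.98% in place of 4.55%, 6.68% in place of 4.21% and 10.4% in place of 7.15%. In the other 3 comparisons the member count with the block stayed 0. With the block, RPL12 (adjusted p = 0.0379) and RPS19 (0.0106) were called with both against TNFα, whose same-numbered arrays correlated at 0.0634 to 0.394. Over all group pairs 13 of 18 same-numbered pairs correlated above 0.1. Without the arrays numbered 3, chosen after seeing the data, both against control called 6. With dividing values of 3, 5 and 6 in place of 4, the low-reading members numbered 5, 22 and 34. Quantile normalisation called 8, 10 and 7 members in the 3 comparisons with apigenin added to a group, and 43, 41 and 32 of 46 core genes were above 0, against 46, 43 and 43 as deposited. In the third, both against control, the median over the core genes was 0.13 with it, against 0.23 as deposited. For the member counts with quantile normalisation or with arrays left out, the share of all genes called in the same fit is not given. The interaction has no fit with only 2 groups. The smallest member difference called in the limma fit without the block was 0.39 (RPS6), a call lost whichever of the 6 compared arrays was left out.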
